A study of Mus musculus with 13 samples.

Results

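Neurotrophic factors are proteins that keep neurons alive and shape their synapses, and they act through receptors on the cell surface. Counts for 8 such genes, of 45777 genes measured, were taken from hippocampal RNA 3 days after pilocarpine-induced status epilepticus (SE), a prolonged seizure after which the hippocampus is injured and later gives rise to recurrent seizures. They were taken by gene symbol and are 4 ligands (Bdnf, Ntf3, Gdnf and Cntf) and 4 receptors (Ntrk2, Ntrk3, Ngfr and Gfra1). All mice carried Nestin-Cre, which recombines in neural progenitors and all of their descendants, in the hippocampus and in other brain regions. WT mice were Nestin-Cre::Lin28a+/+ and cKO mice were Nestin-Cre::Lin28aloxP/loxP, so Lin28a, which encodes an RNA-binding protein that blocks maturation of let-7 microRNAs, was deleted in the neural lineage of the latter. Sham mice received saline, and SE mice received pilocarpine at 6 weeks of age, at a dose of 260 mg/kg for males or 280 mg/kg for females, after scopolamine methyl nitrate and terbutaline, with diazepam to end the seizures. Libraries of whole hippocampus numbered 3 for sham-WT, 4 for sham-cKO, and 3 each for SE-WT and SE-cKO, and the sex of each mouse is not given. The comparisons ask how each gene differed after SE within each genotype, and whether that difference depended on Lin28a.

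The neurotrophins BDNF, made from Bdnf, and neurotrophin-3, made from Ntf3, are cut from longer precursors. The mature proteins bind receptor tyrosine kinases, TrkB (Ntrk2) for BDNF and TrkC (Ntrk3) for neurotrophin-3, while p75NTR (Ngfr) binds all neurotrophins and also their precursors. GDNF binds GFRα1 (Gfra1), a protein anchored at the cell surface that signals together with the kinase RET or with NCAM. CNTF acts through a receptor that shares gp130 (Il6st) and the LIF receptor (Lifr) with other cytokines. In the hippocampus Bdnf is made by excitatory neurons and is induced by neuronal activity, Ntf3 is strongest in granule cells of the dentate gyrus, and Cntf is made by astrocytes.

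In the RefSeq annotation of GRCm38.p6, the genome that mm10 also represents, Bdnf is at chr2:109674700-109727043, Ntf3 at chr6:126101412-126166772, Gdnf at chr15:7810048-7837580 and Cntf at chr19:12763528-12765632. Ntrk2 is at chr13:58806472-59133970, Ntrk3 at chr7:78179986-78581034, Ngfr at chr11:95568818-95587698 and Gfra1 at chr19:58235581-58455946. Cntf lies wholly inside the span of the long noncoding RNA gene Gm44505. Gm39038 overlaps Ntrk3, Gm46650 and Gm10007 overlap Gfra1, and Gm53063 overlaps Ntrk2. Reads were counted per gene, so full-length and truncated forms of TrkB and TrkC were not separated.

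RefSeq start-site windows, from 250 bases before to 50 after each transcript start, matched 7 of the 8 genes, with 15 windows in all, 7 of them at separate starts of Bdnf. They were searched on both strands for TGACGTCA, the full cyclic AMP response element, for TCACGTCA, a variant of it, for its shorter core TGACGT, for CACGTG, which USF proteins bind, for TTCNNNGAA, which STAT proteins bind, and for TGANTCA, which AP-1 binds. None of the 15 windows held TGACGTCA, which 1.79% of all 32851 windows hold. TCACGTCA was found in 1 window of Bdnf, and 0.441% of all windows hold it. The following stretches before a start are shown because Bdnf, Gdnf and Cntf are ligands whose values after SE are described next, with the motif in capitals.
Bdnf, chr2:109692356-109692435, plus strand: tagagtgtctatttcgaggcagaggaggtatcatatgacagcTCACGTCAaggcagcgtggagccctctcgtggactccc
Gdnf, chr15:7809967-7810046, plus strand: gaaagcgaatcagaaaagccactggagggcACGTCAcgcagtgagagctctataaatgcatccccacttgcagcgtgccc
Cntf, chr19:12765803-12765882, minus strand: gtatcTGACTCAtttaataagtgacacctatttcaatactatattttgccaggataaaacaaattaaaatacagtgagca
The Bdnf motif began 38 bases before the start and contains TGACGT on the other strand, and the Gdnf motif, also TGACGT read on the other strand, began 51 bases before its start. TGACGT was found in 7.51% of all windows. The Cntf motif is TGANTCA at 245 bases before the start, which 7.81% of all windows hold, and another Bdnf window also held it. TTCNNNGAA was found in a further Bdnf window (8.30% of all windows) and CACGTG in 1 of the 2 windows of Ntf3 (7.15%). A match is a description of the sequence only, and the counts per gene do not say which start was used.

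Totals ranged from 59659977 to 84354243 read counts per library. Lin28a had 3 counts in SE-WT replicate 3 and 0 in each of the other libraries, so the deletion could not be checked at this depth. Markers of granule cells and CA pyramidal neurons were present in all 13 libraries, with no gene of either list at 0 counts. SE-WT replicate 2 stood apart, with a summed striatal marker level of 2445 CPM (counts scaled to a common library size, with TMM factors) against at most 253 CPM elsewhere, and septal cholinergic markers at 124 CPM against at most 6.53 CPM. Thalamic markers were high in SE-WT replicate 3 (1509 CPM) and sham-cKO replicate 2 (2497 CPM), against 206 to 346 CPM in the rest. SE-WT replicate 3 and SE-cKO replicate 3 carry titles of another style and had 4.83% and 3.92% mitochondrial rRNA counts, against 0.486% to 1.66%. Choroid plexus markers varied within groups, from 20.3 CPM in SE-cKO replicate 3 to 4470 CPM in sham-WT replicate 3. For gene lists, values without SE-WT replicate 2 or SE-cKO replicate 3 are given where a call or the sign of a median changed.

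In sham mice the receptors for BDNF and neurotrophin-3 stood highest per length of transcript. In the deposited TPM (which takes gene length and library depth into account), mean levels in sham-WT were 84.4 ± 4.59 TPM for Ntrk2, 37.6 ± 5.61 TPM for Ntrk3, 15.1 ± 2.65 TPM for Gfra1, 12.4 ± 0.972 TPM for Bdnf, 5.56 ± 1.27 TPM for Ntf3, 1.61 ± 0.721 TPM for Cntf, 0.542 ± 0.0537 TPM for Ngfr and 0.0338 ± 0.0585 TPM for Gdnf (SD, n = 3). The order was the same in sham-cKO. Only Gfra1 and Bdnf, neighbours in that order, overlapped between libraries in sham-WT, and no neighbours overlapped in sham-cKO. After SE neighbours overlapped in 5 of 7 cases in SE-WT, where Ntrk2 and Ntrk3 again stood apart at the top, and in 6 of 7 in SE-cKO. In SE-cKO Ntrk2 (91.5 ± 15.2 TPM) was followed by Bdnf (52.9 ± 60.4 TPM), Gfra1 (37.9 ± 12.2 TPM) and Ntrk3 (30.5 ± 11.5 TPM; SD, n = 3). Bdnf stood second there through replicate 3, at 122 TPM against 105 TPM for Ntrk2, and by the median of the libraries it was the lowest of these 4 genes.

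**Figure D1:**
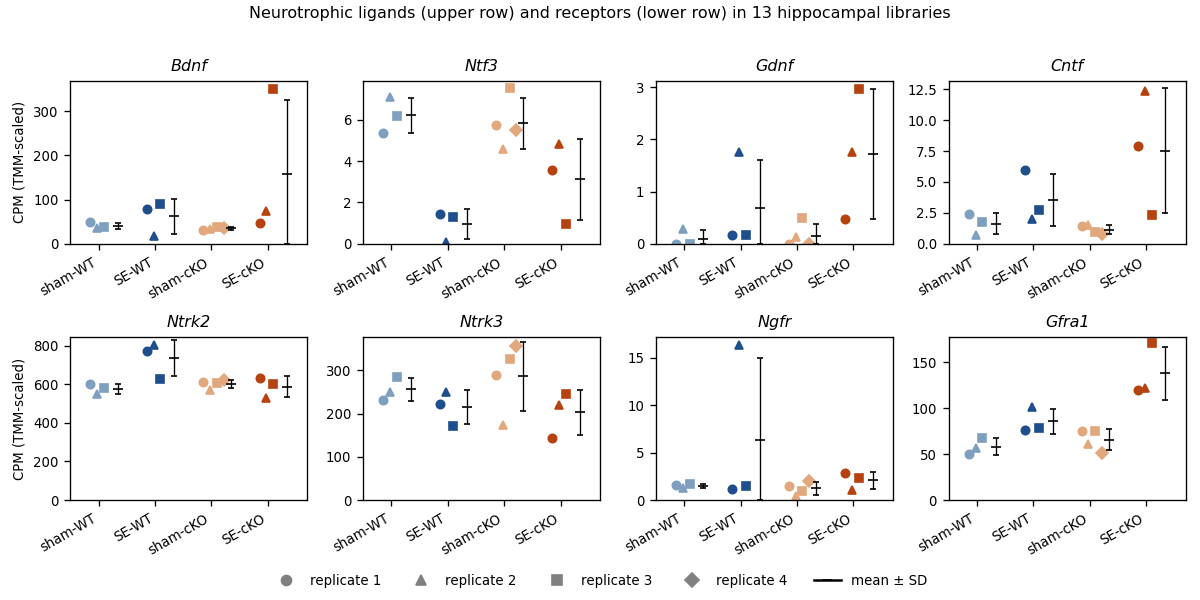
Level of each gene in CPM (linear axis from 0) in each library, by group, with the ligands in the upper row and the receptors in the lower row, symbols for replicate numbers and black bars for mean ± SD (drawn down to 0 at most). SE-cKO replicate 3 held the highest Bdnf (351 CPM) and SE-WT replicate 2 the highest Ngfr (16.4 CPM), while the SE-cKO libraries all lay above both sham groups for Gfra1.

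Of the 8 genes, 3 rose in SE-cKO against sham-cKO, namely Bdnf, Gfra1 and Cntf, and none fell (edgeR quasi-likelihood test, Benjamini-Hochberg adjusted p under 0.05). Over all 21307 genes tested in that comparison, 13.8% rose and 8.92% fell. None of the 8 passed in WT mice after SE, with 2 at an unadjusted p under 0.05 and 1, Ntf3, called by DESeq2. The background there was 5.40% called by edgeR, 20.8% at an unadjusted p under 0.05 and, among genes lower after SE, 3.84% called by DESeq2. The median log2 change of the 8 genes was 0.90 in SE-cKO and 0.55 in SE-WT, beside 0.00 and 0.02 over all genes tested. Every gene passed the count filter in both comparisons. These are bulk hippocampi, so a gain or loss of cells and a change of RNA per cell cannot be told apart.

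**Figure D2:**
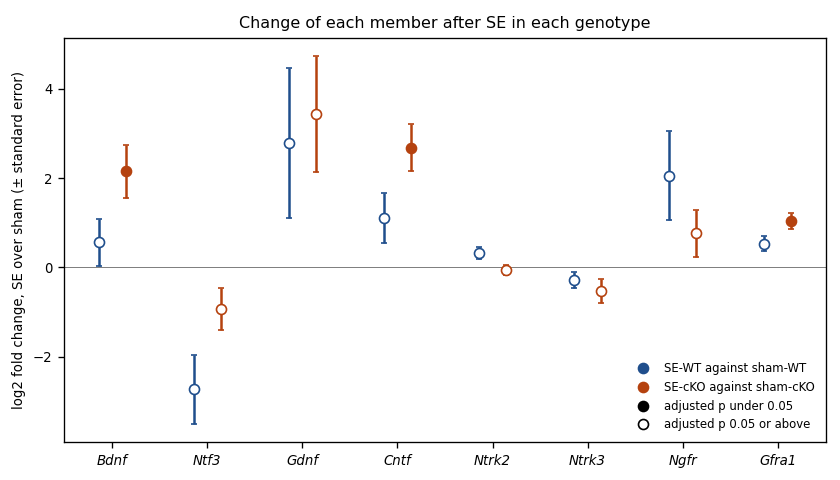
Log2 fold change after SE against sham for each gene in WT (blue) and cKO (red), with its standard error, and filled points for an adjusted p under 0.05 in edgeR. The filled points are Bdnf, Cntf and Gfra1 in cKO, and Ntf3 has the lowest value in WT.

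Bdnf, the activity-induced neurotrophin, was even between sham mice. It was at 48.9, 36.7 and 38.1 CPM in sham-WT replicates 1 to 3 and at 31.1, 33.8, 37.5 and 36.6 CPM in sham-cKO replicates 1 to 4. After SE it was at 79.6, 17.5 and 89.2 CPM in SE-WT replicates 1 to 3. In SE-cKO it was at 47.0, 74.8 and 351 CPM. SE-WT replicates 1 and 3 lay above every sham library and replicate 2 below every sham library. All SE-cKO libraries but replicate 1 lay above every sham library and all lay above sham-cKO. Over all genes 19.8% were higher without overlap in SE-cKO against sham-cKO. Bdnf rose in SE-cKO by a log2 change of 2.15 (standard error 0.59, adjusted p = 0.0305 in edgeR), a 4.44-fold difference. In SE-WT the log2 change was 0.56 (standard error 0.52, adjusted p = 0.603).

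A single library set the size of each of those values. Without SE-cKO replicate 3 the rise in SE-cKO was 0.81 on the log2 scale (standard error 0.18, edgeR adjusted p = 0.0207), where 21.6% of all genes were called. Without SE-WT replicate 2 Bdnf also rose in SE-WT, by 1.01 (standard error 0.16, edgeR adjusted p = 0.0167), where 5.50% of all genes were called. The call in SE-cKO was lost with any of the 4 sham-cKO libraries left out (adjusted p 0.0613 to 0.0810) and with title style as a term in a fit of all 13 libraries, where the log2 change was 1.10 (edgeR adjusted p = 0.120).

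Of 12 genes regulated by BDNF or activity, 4 rose in SE-cKO and 0 fell (beside 13.8% and 8.92% of all genes), with a median log2 change of 1.27. They were Vgf, which encodes a secreted neuropeptide precursor (log2 change 2.01, standard error 0.41), Nptx2, a synaptic pentraxin (3.69, standard error 0.81), the immediate early gene Fos (2.48, standard error 0.61) and Spry2, an inhibitor of receptor kinase signaling (1.28, standard error 0.36). In SE-WT none of the 12 passed in edgeR, with 4 at an unadjusted p under 0.05 (20.8% of all genes). DESeq2 called 3 higher in SE-WT, for which no share over all genes is given here. Fos there had a log2 change of 2.32 (standard error 0.56, edgeR adjusted p = 0.0636). Without SE-WT replicate 2, 4 of the 12 rose in SE-WT (5.50% of all genes called in either direction). Without SE-cKO replicate 3, 3 of the 12 rose in SE-cKO (21.6% of all genes called in either direction). The median in SE-cKO was then -0.14, and Fos no longer passed (1.40, edgeR adjusted p = 0.0545).

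The summed level of these 12 genes was 391 to 648 CPM in the sham libraries. It reached 2246 CPM in SE-cKO replicate 3, the library highest in Bdnf, and was 477 CPM in SE-WT replicate 2, the library lowest in Bdnf. Arc, another immediate early gene, was at 502 CPM in the former and at 27.3 CPM in the latter, the extremes of the 13 libraries. The part of recent activity, of the title style and of the dissected tissue in the Bdnf values was not tested.

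The 3 genes whose profile over the 13 libraries was closest to that of Bdnf were Ptgs2, which encodes the prostaglandin synthase COX-2, Csrnp1 and Serinc2. Likeness was the root-mean-square difference of log2 CPM after each gene was centred on its sham mean, and it was 0.28, 0.38 and 0.42. Ptgs2 was at 84.3, 14.6 and 96.7 CPM in SE-WT replicates 1 to 3. It was at 25.6, 58.2 and 309 CPM in SE-cKO, so both extremes fell in the same libraries as those of Bdnf. All genes of a library share its depth and tissue composition, both of which differed between libraries, so this likeness is a description.

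**Figure D3:**
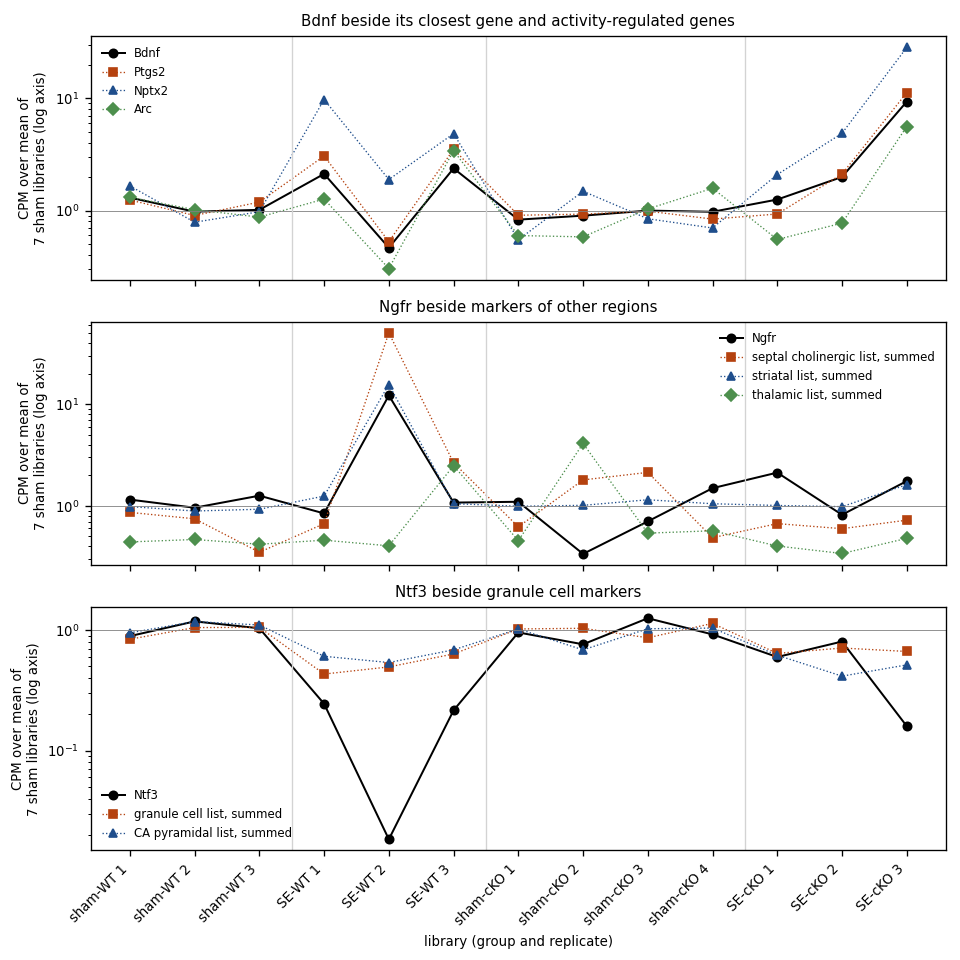
Level in each of the 13 libraries relative to the mean of the 7 sham libraries (log axis), for Bdnf with Ptgs2, Nptx2 and Arc, for Ngfr with summed markers of septal cholinergic, striatal and thalamic cells, and for Ntf3 with summed markers of granule cells and CA pyramidal neurons. Bdnf and Ptgs2 share their lowest (SE-WT 2) and highest (SE-cKO 3) libraries, and Ngfr, striatal and septal cholinergic markers share their highest library (SE-WT 2).

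Of 11 genes for regulators of Bdnf transcription, 2 rose and 2 fell in SE-cKO (beside 13.8% and 8.92% of all genes), with a median log2 change of -0.04. Rest, a repressor of neuronal genes, rose by 1.27 (standard error 0.15) and Nfkb1, a subunit of NF-κB, by 0.67 (standard error 0.11). The CREB coactivator Crtc1 fell by 0.72 on the log2 scale (standard error 0.16). None of the 11 was called in SE-WT by edgeR or by DESeq2. There 6 reached an unadjusted p under 0.05 in edgeR (20.8% of all genes), and 1 rose without SE-WT replicate 2 (5.50% of all genes called).

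Ntf3, the neurotrophin of granule cells, was lower after SE in WT mice in every library. It was at 5.34, 7.08 and 6.21 CPM in sham-WT and at 1.47, 0.110 and 1.29 CPM in SE-WT, with no overlap between the groups. Over all genes tested in that comparison 11.9% were lower without overlap. The log2 change was -2.73 (standard error 0.77, edgeR adjusted p = 0.0951), so Ntf3 did not pass in the edgeR fit. It passed in DESeq2 (adjusted p = 0.00201), with all 4 groups in 1 edgeR fit (adjusted p = 0.0367, with 7.85% of all genes called), and in edgeR without SE-WT replicate 2, the lowest library, where it fell by 2.19 on the log2 scale (standard error 0.27, adjusted p = 0.00735).

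In cKO mice Ntf3 was at 5.73, 4.57, 7.52 and 5.52 CPM in sham-cKO and at 3.59, 4.82 and 0.957 CPM in SE-cKO. The groups overlapped, through SE-cKO replicate 2, and only replicate 3 was as low as the SE-WT libraries. The log2 change was -0.93 (standard error 0.48, edgeR adjusted p = 0.208). SE-cKO differed from SE-WT by 1.67 (standard error 0.90, edgeR adjusted p = 0.614), and the interaction of genotype and SE, the response in cKO minus that in WT, was 1.80 (standard error 0.92, edgeR adjusted p = 0.443). With SE-WT replicate 2 and SE-cKO replicate 3 both left out, the difference between SE-cKO and SE-WT passed, at 1.54 (standard error 0.29, edgeR adjusted p = 0.0327), an alternative chosen after the values were seen that called 2.31% of all genes.

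Markers of granule cells moved the same way as Ntf3 in WT, and so did those of CA pyramidal neurons. The summed level of the 10 granule cell markers was 544 to 682 CPM in sham-WT and 559 to 736 CPM in sham-cKO. It was 279 to 410 CPM in SE-WT and 415 to 460 CPM in SE-cKO, and 5 of the 10 fell in each SE comparison. Over all genes 8.92% fell in SE-cKO, and 5.40% were called in SE-WT in either direction. None of the 10 was at 0 counts in any library. In SE-WT replicate 2 Ntf3 had 8 counts where the summed granule cell markers were at 320 CPM. The 10 CA pyramidal markers summed to 808 to 1001 CPM in sham-WT and 458 to 583 CPM in SE-WT. They summed to 583 to 884 CPM in sham-cKO and 353 to 526 CPM in SE-cKO. Of these 10 markers, 1 fell in SE-WT and 3 in SE-cKO. The part of either cell type in the level of Ntf3 was not tested.

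The ratio of Bdnf to Ntf3 within a library was higher after SE. The TPM of Bdnf was 1.71 to 3.07 times that of Ntf3 in the 7 sham libraries. It was 20.8, 61.2 and 23.5 times in SE-WT replicates 1 to 3. The ratio of SE-WT replicate 2 rests on 8 counts of Ntf3, and Bdnf was lowest there of the 13 libraries (17.5 CPM). In SE-cKO the TPM of Bdnf was 4.88, 5.21 and 135 times that of Ntf3. Each SE library thus lay above each sham library in this ratio, to which no test was applied.

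Gdnf, the ligand of GFRα1, was at the edge of detection in sham mice. It had 0, 21 and 0 counts in sham-WT, 0, 8, 36 and 0 counts in sham-cKO, 10, 127 and 14 counts in SE-WT and 37, 131 and 198 counts in SE-cKO. A count of 0 allows up to 3 counts, or 0.0356 to 0.0503 CPM per library, for counting error only. The groups overlapped in both genotypes, in cKO because replicate 1 of SE-cKO (0.472 CPM) lay just under replicate 3 of sham-cKO (0.491 CPM). In SE-cKO the log2 change was 3.43 (standard error 1.30, edgeR adjusted p = 0.0952), and it passed in DESeq2 (adjusted p = 0.0385), which called 29.5% of all genes. Without sham-cKO replicate 3, the highest sham library, it also passed in edgeR, at 5.34 (standard error 1.31, adjusted p = 0.0276), where 18.5% of all genes were called. In SE-WT it was 2.79 (standard error 1.68, edgeR adjusted p = 0.404), and without SE-WT replicate 2 it was 0.74. Since sham-WT replicates 1 and 3 held no count, the fold in WT rests on the 21 counts of replicate 2.

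Gfra1, the GDNF receptor, was higher after SE in both genotypes without overlap between libraries. It was at 50.4, 56.4 and 67.8 CPM in sham-WT and at 75.1, 61.0, 75.4 and 51.5 CPM in sham-cKO. It was at 76.7, 102 and 78.9 CPM in SE-WT and at 120, 122 and 171 CPM in SE-cKO. Every SE library of each genotype was above every sham library, and every SE-cKO library was above every SE-WT library. Over all genes, 16.8% were higher without overlap in SE-WT, 19.8% in SE-cKO and 9.30% in SE-cKO against SE-WT.

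Gfra1 rose in SE-cKO by 1.04 on the log2 scale (standard error 0.18, edgeR adjusted p = 0.00437), a 2.06-fold difference, and passed in all 17 alternatives, at 0.82 to 1.16. In SE-WT the log2 change was 0.54 (standard error 0.17, edgeR adjusted p = 0.129). SE-cKO was 0.65 above SE-WT (standard error 0.22, edgeR adjusted p = 0.407), and the interaction was 0.51 (standard error 0.26, edgeR adjusted p = 0.447), so the difference between the genotypes did not pass. The closest profiles to Gfra1 were those of Twf1, an actin-binding protein, Myo9b, an unconventional myosin, and Pdlim5, at a root-mean-square difference of 0.21, 0.22 and 0.22.

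Among the other genes of the GDNF family and its receptors, 1 rose and 1 fell in each SE comparison, of 8 tested in WT and 7 in cKO. The median log2 change was 0.45 in WT and -0.16 in cKO. Over all genes, 13.8% rose and 8.92% fell in SE-cKO, and 5.40% were called in SE-WT in either direction. Sdc3, a heparan sulfate proteoglycan that binds GDNF, rose by 0.97 in SE-WT (standard error 0.21) and by 0.83 in SE-cKO (standard error 0.14). Gfra4, the receptor for persephin, changed by -0.84 in SE-WT (standard error 0.13) and by -0.71 in SE-cKO (standard error 0.17), a call lost without SE-cKO replicate 3 (-0.58, edgeR adjusted p = 0.0602). The kinase Ret was at 4.14 ± 1.21 CPM in sham-WT and 11.7 ± 5.42 CPM in SE-WT (SD, n = 3), with a log2 change of 1.47 (standard error 0.38, edgeR adjusted p = 0.0737), and it passed without SE-WT replicate 2 (1.69, edgeR adjusted p = 0.0464). Ret reached 26.9 CPM in sham-cKO replicate 2, which was also the library highest in thalamic markers. Within SE-WT Ret was highest in replicate 3 (17.9 CPM), the other library high in thalamic markers, which the fit without replicate 2 keeps. The part of the dissected tissue in the level of Ret was not tested.

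Cntf, the cytokine of astrocytes, had low counts in sham mice. It was at 2.39, 0.732 and 1.75 CPM in sham-WT and at 1.42, 1.51, 0.928 and 0.754 CPM in sham-cKO. It was at 5.96, 1.98 and 2.75 CPM in SE-WT and at 7.92, 12.4 and 2.30 CPM in SE-cKO. Each SE-cKO library was above each sham-cKO library, as for 19.8% of all genes, while SE-WT replicate 2 overlapped sham-WT. Cntf rose in SE-cKO by 2.68 on the log2 scale (standard error 0.53, edgeR adjusted p = 0.00760) and passed in all 17 alternatives, at 2.12 to 3.14. In SE-WT the log2 change was 1.10 (standard error 0.56, edgeR adjusted p = 0.317) and the interaction was 1.58 (standard error 0.82, edgeR adjusted p = 0.451).

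Within each of the 4 groups, the library with most counts of Cntf held the fewest counts of Gm44505, the gene that spans it. Gm44505 had 0 counts in sham-WT replicate 1 and 148 and 131 counts in replicates 2 and 3, where Cntf had 194, 53 and 104 counts. In SE-WT Gm44505 was highest in replicate 2 (290 counts) and lowest in replicate 1 (30 counts), beside 370, 144 and 223 counts for Cntf in replicates 1 to 3. In SE-cKO it had 592, 139 and 313 counts beside 621, 928 and 154 counts for Cntf. How the authors' counting split reads between the overlapping genes is not given in the sources used here, so the level of Cntf alone is uncertain.

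Summed with Gm44505, Cntf was at 2.39, 2.77 and 3.96 CPM in sham-WT and at 6.45, 5.98 and 4.37 CPM in SE-WT. These groups no longer overlapped, and 16.8% of all genes were higher without overlap there. The sum was at 1.42, 3.12, 2.14 and 2.57 CPM in sham-cKO and at 15.5, 14.2 and 6.98 CPM in SE-cKO. Its log2 change was 2.38 in SE-cKO (standard error 0.35, edgeR adjusted p = 0.00182) and 0.86 in SE-WT (standard error 0.28, edgeR adjusted p = 0.144). The standard errors were below those of Cntf alone, and the sum also holds any reads of Gm44505 outside Cntf.

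**Figure D4:**
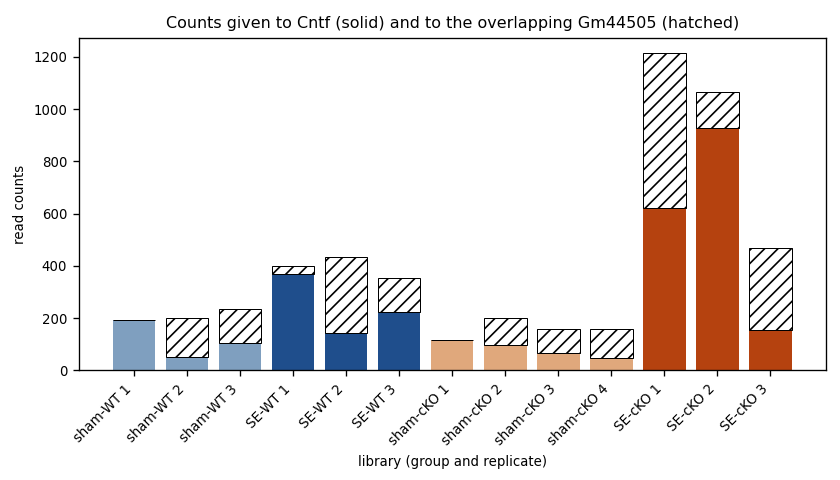
Read counts given to Cntf (solid bars, coloured by group) and to the overlapping Gm44505 (hatched, stacked above) in each of the 13 libraries, on a linear axis from 0. The stacked totals run from 117 to 235 counts in sham libraries, 355 to 434 in SE-WT and 467 to 1213 in SE-cKO.

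Other members of the cytokine family of CNTF moved the same way. Of the 12 other ligands and receptors, 7 rose and 0 fell in SE-cKO, with a median log2 change of 2.04, and 2 of the 11 tested rose in SE-WT, with a median of 1.28. Over all genes, edgeR called 13.8% higher in SE-cKO and 5.40% in SE-WT in either direction. DESeq2 called 7 of 11 higher in SE-WT, where its share of all genes called higher is not given here, and 6 of 11 in SE-cKO. The larger count of edgeR in SE-cKO was not seen with DESeq2, and the genotypes were not compared in these counts. DESeq2 called 29.5% of all genes in SE-cKO in either direction. Clcf1, another ligand of the CNTF receptor, rose by 5.07 in SE-cKO (standard error 0.26), from 0.220 ± 0.0372 CPM (SD, n = 4) to 7.57 ± 1.19 CPM (SD, n = 3). Osmr, the oncostatin M receptor, rose by 3.80 in SE-cKO (standard error 0.33) and by 2.96 in SE-WT (standard error 0.24). Lif, the leukemia inhibitory factor, rose by 4.41 in SE-cKO (standard error 0.62) and had a log2 change of 4.30 in SE-WT (standard error 0.98, edgeR adjusted p = 0.0528). Il6ra, the interleukin-6 receptor, rose by 1.35 in SE-cKO (standard error 0.25). Without SE-WT replicate 2, 5 of the 11 rose in SE-WT, and without SE-cKO replicate 3, 6 of the 12 rose in SE-cKO, with a median of 1.18. Those fits called 5.50% and 21.6% of all genes in either direction.

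Markers of reactive astrocytes, like genes of the family of CNTF, were higher after SE in both genotypes. The summed level of the 10 markers was 405 to 460 CPM in sham-WT and 382 to 454 CPM in sham-cKO, and it was 3935 to 4373 CPM in SE-WT and 7457 to 8335 CPM in SE-cKO. Osmr stands in both lists. SE-cKO replicate 3 had the highest sum of reactive astrocyte markers and the lowest Cntf of SE-cKO. Homeostatic astrocyte markers summed to a mean of 5733 CPM in sham-WT and 5705 CPM in SE-WT. The means were 5963 CPM in sham-cKO and 5325 CPM in SE-cKO. All 10 microglia markers rose in each SE comparison. Of 10 oligodendrocyte precursor markers, 3 rose in SE-WT (5.40% of all genes called in either direction) and 9 in SE-cKO (13.8% of all genes rose). The part of any of these cells in the level of Cntf was not tested. The closest profiles to Cntf were those of Cenpn, H1f1 and Ly6c2, at a root-mean-square difference of 0.45, 0.45 and 0.46.

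Neither TrkB nor TrkC, the kinases that bind BDNF and neurotrophin-3, passed in either SE comparison. Ntrk2 was at 602, 551 and 579 CPM in sham-WT and at 774, 806 and 630 CPM in SE-WT, with no overlap. Over all genes 16.8% were higher without overlap in that comparison. In cKO mice Ntrk2 was at 610, 569, 609 and 620 CPM in sham-cKO and at 635, 527 and 603 CPM in SE-cKO, where the groups overlapped. The log2 change was 0.33 in SE-WT (standard error 0.14, edgeR adjusted p = 0.243) and -0.06 in SE-cKO (standard error 0.11, edgeR adjusted p = 0.751). Of the 8 genes only Ntrk2 had an unadjusted p under 0.05 for the interaction, which was -0.38 (standard error 0.16, edgeR adjusted p = 0.343).

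Ntrk3 was at 232, 250 and 286 CPM in sham-WT and at 223, 249 and 171 CPM in SE-WT. It was at 289, 173, 326 and 356 CPM in sham-cKO and at 144, 219 and 245 CPM in SE-cKO. The low sham-cKO value was that of replicate 2, the library highest in thalamic markers. The log2 change was -0.28 in SE-WT (standard error 0.17, edgeR adjusted p = 0.414) and -0.52 in SE-cKO (standard error 0.27, edgeR adjusted p = 0.202). Without sham-cKO replicate 2 Ntrk3 fell in SE-cKO by 0.72 on the log2 scale (standard error 0.21, edgeR adjusted p = 0.0480), where 21.9% of all genes were called.

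The TPM of Ntrk2 was 1.88 to 3.61 times that of Ntrk3 in the sham libraries. It was 3.24 to 3.87 times in SE-WT and 2.41 to 5.06 times in SE-cKO. The highest sham ratio was again that of sham-cKO replicate 2, and without it the sham libraries ended at 2.54, below each SE-WT library.

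Of 15 adaptors and effectors of the Trk kinases, 2 rose and 1 fell in SE-cKO, near the shares of 13.8% and 8.92% over all genes, with a median log2 change of -0.09. Without SE-cKO replicate 3, 2 rose and 2 fell (21.6% of all genes called in either direction). DESeq2 called 2 higher and 4 lower in SE-cKO (29.5% of all genes called in either direction). The adaptors Sh2b2 and Shc1 rose by 1.44 (standard error 0.19) and 1.35 (standard error 0.19), and Rit2, a neuronal small GTPase, changed by -0.99 (standard error 0.18). None of the 15 was called in SE-WT by edgeR, where 2 reached an unadjusted p under 0.05 (20.8% of all genes). DESeq2 called 1 lower in SE-WT (3.84% of all genes lower) and 1 higher, for which no share over all genes is given here. Shc1 there had a log2 change of 0.63 (standard error 0.20, edgeR adjusted p = 0.128).

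Ngfr, which encodes p75NTR, was low in every library but SE-WT replicate 2. It was at 1.54, 1.28 and 1.69 CPM in sham-WT and at 1.47, 0.451, 0.942 and 2.00 CPM in sham-cKO. It was at 1.13, 16.4 and 1.44 CPM in SE-WT and at 2.85, 1.09 and 2.35 CPM in SE-cKO. The groups overlapped in each comparison. The log2 change was 2.06 in SE-WT (standard error 1.00, edgeR adjusted p = 0.301) and -0.25 without SE-WT replicate 2 (standard error 0.35, edgeR adjusted p = 0.751). In SE-cKO it was 0.76 (standard error 0.52, edgeR adjusted p = 0.353).

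SE-WT replicate 2 was also the library with septal cholinergic markers, cells in which Ngfr is strongly expressed. Chat, the enzyme that makes acetylcholine, was at 26.1 CPM there and at most 0.902 CPM in the other libraries. Of the 7 septal cholinergic markers 0 were at 0 counts in this library, and 1 to 6 were at 0 in each of the others. The 8 markers of Schwann cells, which also express Ngfr, summed to 27.5 CPM there, with 2 of them at 0 counts. They summed to 27.6 and 29.4 CPM in the other SE-WT libraries. Without this library, Ngfr in SE-WT was within the range of the sham libraries. The part of the dissected tissue and of any cell type in the level of Ngfr was not tested.

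**Figure D5:**
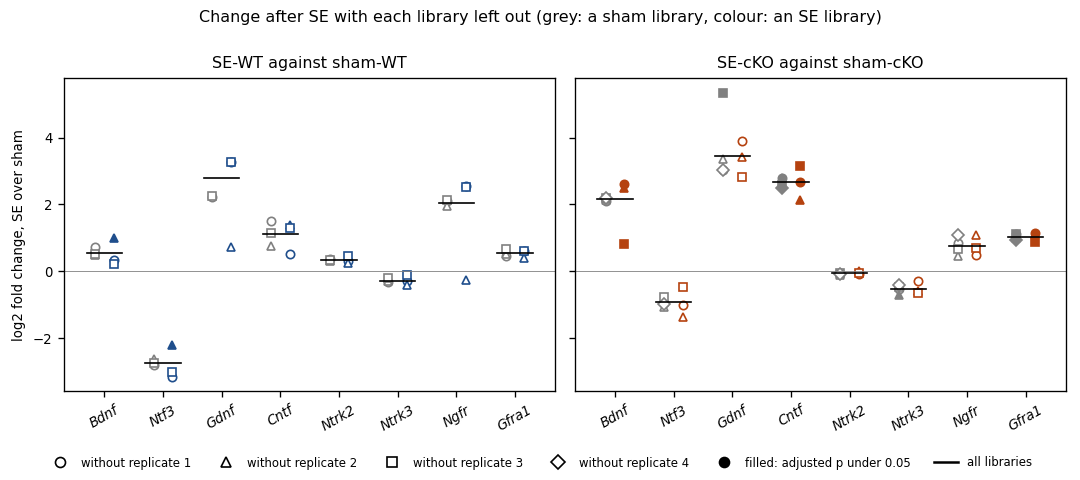
Log2 fold change after SE against sham for each gene with each library left out in turn (grey for a sham library, colour for an SE library, shape for its replicate number, filled for an edgeR adjusted p under 0.05), with black lines for all libraries. The values of Bdnf and Ngfr in WT and of Bdnf in cKO each shift with 1 SE library, as does that of Gdnf in WT, while those of Gfra1 and Cntf in cKO are filled throughout. Gdnf in WT has no value without sham-WT replicate 2, since the other sham-WT libraries held 0 counts.

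Of the 11 partners and adaptors of p75NTR, 3 rose and 1 fell in SE-cKO, with a median log2 change of -0.08. In SE-WT 1 rose, with a median of 0.09. Over all genes, 13.8% rose and 8.92% fell in SE-cKO, and 5.40% were called in SE-WT in either direction. Adam17, a protease that sheds the outer part of p75NTR, rose by 0.86 in SE-WT (standard error 0.11) and by 1.35 in SE-cKO (standard error 0.17). Nradd, a relative of p75NTR, rose by 2.07 in SE-cKO (standard error 0.34), and Arhgdia, an inhibitor of small GTPases, by 0.99 (standard error 0.17). Bex1, an adaptor of p75NTR, changed by -0.67 (standard error 0.20, edgeR adjusted p = 0.0449), a call lost without SE-cKO replicate 3 (-0.53, edgeR adjusted p = 0.123). DESeq2 called 3 of the 11 higher and 3 lower in SE-cKO (29.5% of all genes called). Without SE-WT replicate 2, 1 rose and 1 fell in SE-WT (5.50% of all genes called).

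Among the other neurotrophins and their receptors, Sort1, the sortilin receptor that binds proneurotrophins together with p75NTR, fell by 1.01 on the log2 scale in SE-cKO (standard error 0.14, edgeR adjusted p = 0.00164), and the other 5 genes tested did not pass. Sort1 was at 588 ± 72.9 CPM in sham-cKO (SD, n = 4) and 298 ± 40.1 CPM in SE-cKO (SD, n = 3). In SE-WT its log2 change was -0.65 (standard error 0.21, edgeR adjusted p = 0.136). None of the 7 genes passed there in edgeR, with 3 at an unadjusted p under 0.05 (20.8% of all genes). DESeq2 called 1 lower in SE-WT (3.84% of all genes lower) and 2 higher, for which no share over all genes is given here. The median of the list was 0.14 in SE-WT and 0.21 in SE-cKO, and -0.28 in SE-cKO without replicate 3.

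Genes that process and secrete proneurotrophins were called in both directions. Of the 11 tested, 2 rose in SE-WT and 1 fell, with a median log2 change of -0.11 (0.068 without SE-WT replicate 2). In SE-cKO 3 rose and 2 fell, with a median of 0.28. Over all genes, 5.40% were called in SE-WT in either direction, and 13.8% rose and 8.92% fell in SE-cKO. Plat, the tissue plasminogen activator whose product plasmin cuts proBDNF, rose by 0.68 in SE-WT (standard error 0.11) and by 1.16 in SE-cKO (standard error 0.16). Cadps2, which promotes the release of BDNF from vesicles, changed by -1.32 in SE-WT (standard error 0.23) and by -1.44 in SE-cKO (standard error 0.36), a call lost without SE-cKO replicate 3 (-1.14, edgeR adjusted p = 0.0523). Without that library 2 of the 11 rose and 1 fell in SE-cKO (21.6% of all genes called). DESeq2 with all libraries called 4 higher and 3 lower there (29.5% of all genes called). Cpe, carboxypeptidase E, a sorting receptor for proBDNF, changed by -0.69 in SE-cKO (standard error 0.16).

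Of 12 growth factors of the injured brain outside these families, 2 rose in SE-WT and 0 fell, with a median log2 change of 0.76. In SE-cKO 6 rose and 0 fell, with a median of 0.82. Over all genes, 5.40% were called in SE-WT in either direction, and 13.8% rose and 8.92% fell in SE-cKO. DESeq2 called 6 higher in each genotype, with 1 lower in SE-cKO, and the genotypes were not compared in these counts. In SE-cKO DESeq2 called 29.5% of all genes, and its share of all genes higher in SE-WT is not given here. Without SE-cKO replicate 3, 6 rose and 1 fell in SE-cKO (21.6% of all genes called). Hbegf, a ligand of the EGF receptor, rose by 2.06 in SE-WT (standard error 0.17) and by 2.04 in SE-cKO (standard error 0.16). Fgf2, a mitogen of astrocytes and progenitors, rose by 2.23 in SE-cKO (standard error 0.15), and Tgfb1 by 2.95 (standard error 0.25). Inhba, a subunit of activin A, rose by 2.03 in SE-WT (standard error 0.27) and by 5.04 in SE-cKO (standard error 1.03), with 476 CPM in SE-cKO replicate 3 and 12.4 and 63.7 CPM in replicates 1 and 2. Without SE-cKO replicate 3 Inhba rose by 2.79 on the log2 scale.

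Between genotypes none of the 8 genes passed. In SE-cKO against SE-WT 0 of 8 were called by edgeR, with 1, Gfra1, at an unadjusted p under 0.05 and 0 called by DESeq2, where edgeR called 0 of all 21126 genes (0%), 9.68% had an unadjusted p under 0.05 and DESeq2 called 2.31%. In sham-cKO against sham-WT 0 of the 7 tested were called by edgeR or DESeq2 and 0 had an unadjusted p under 0.05, where edgeR called 0% of all genes, 5.54% had an unadjusted p under 0.05 and DESeq2 called 0.0821%. Gdnf did not pass the count filter there. The sham log2 changes ran from -0.48 (Cntf, standard error 0.42) to 0.19 (Gfra1, standard error 0.15). For the interaction 0 of 8 were called by edgeR or DESeq2 and 1 had an unadjusted p under 0.05, beside 0.159% of all genes called by edgeR, 2.94% by DESeq2 and 12.5% at an unadjusted p under 0.05. Its values ran from -1.28 for Ngfr (standard error 1.17) to 1.80 for Ntf3 (standard error 0.92), and in absolute size the standard error was above the value for Gdnf and Ntrk3.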

How the data were processed

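Hippocampal RNA of 13 mice was sequenced. The authors built TruSeq stranded total-RNA libraries and used bcl2fastq 2.20.0, Trimmomatic, HISAT2 2.1.0 (against mm10) and StringTie 2.1.3b. Strand setting and read filters are not given in the sources used here. The deposited table lists whole-number read counts, FPKM and TPM for each of 45777 genes. The authors' TPM served to order genes per length, and the deposited FPKM was not used. The deposited counts went through filterByExpr (minimum count 10, minimum total 15), TMM normalization and edgeR 4.0.16 in R 4.3.3 (robust quasi-likelihood). Benjamini-Hochberg adjustment covered all genes tested, at a threshold of 0.05. Each comparison used its 2 groups, and the interaction all 13 libraries. DESeq2 1.42.0 was an alternative. Log2 CPM had a prior count of 2. The fits were tested on simulated data. A standard error is the log2 change over the square root of F. That replicates are separate mice follows the labels, and no pooling is stated.

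The members, lists, tests and naming rule were chosen with earlier results of these data known. The rule names all 8 members, up to 4 genes per list with the smallest p in each SE comparison, and the 3 genes closest in profile to each member called after SE (without predicted genes, clones and small RNAs). Some genes that the rule names are not reported here. Npas4 stands in 2 lists. Chat, Arc and Gm44505 were named after their values were seen. Of the 8 genes, 7 matched RefSeq start-site windows of GRCm38.p6.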

Additional observations from a re-analysis of the deposited data

How the results depend on the processing

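Groups held 3 or 4 mice, and folds of Gdnf rest on few counts. For single genes, 639 of 683 alternative values kept their direction and their side of the threshold, 14 newly passed, 9 (all Bdnf in SE-cKO) no longer passed and 21 reversed, none of the latter past the threshold. Gfra1 and Cntf in SE-cKO kept their calls throughout. Causes were not tested, and a setting that leaves out libraries gives only the values without them. In SE-WT against sham-WT the number of members called was 0, but 1 by DESeq2 and with all 4 groups in 1 fit (Ntf3), 2 with Xist level as a covariate (Ntf3 and Gfra1), 0 to 2 with each library left out, and 2 with SE-WT replicate 2 and SE-cKO replicate 3 left out together, an alternative chosen after the data were seen. In SE-cKO against SE-WT that alternative gave 1 (Ntf3) in place of 0. In SE-cKO against sham-cKO 3 were called, and 2 to 3 with each library left out. Libraries of the same replicate number were not treated as pairs. Over genes, their deviations from the group means correlated at -0.074 to 0.25, which cannot show whether any were paired. With the replicate block 2 were called in SE-cKO against sham-cKO, Bdnf being at 1.60 (edgeR adjusted p = 0.115).

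Reversed log2 values were all of members not called. With title style as a term, Bdnf was at -0.0096 in SE-WT against sham-WT and Ntrk2 at 0.014 in SE-cKO against sham-cKO. With SE-WT replicates 2 and 3 and sham-cKO replicate 2 left out, the libraries rich in striatal or thalamic markers, Ngfr was at -0.43 in SE-WT against sham-WT, 0.86 in SE-cKO against SE-WT and 0.90 for the interaction, and Ntf3 at 0.0010 in sham-cKO against sham-WT. Without SE-WT replicate 2 and SE-cKO replicate 3, Ngfr was at -0.23, 0.55 and 0.86 in the same 3 comparisons, and Bdnf at -0.53 in SE-cKO against SE-WT and -0.28 for the interaction. With each library left out, Ngfr ran from -0.25 to 2.55 in SE-WT against sham-WT, from -2.15 to 0.67 in SE-cKO against SE-WT and from -1.80 to 0.98 for the interaction. Likewise Ntrk2 ran from -0.11 to 0.015 in SE-cKO against sham-cKO, Bdnf from -0.072 to 1.77 and Ntrk3 from -0.29 to 0.085 in SE-cKO against SE-WT, Ntf3 from -0.22 to 0.026 in sham-cKO against sham-WT, and Gdnf from -0.030 to 2.69 for the interaction. Gdnf without sham-WT replicate 2 was left out, since the sham-WT libraries were then at 0 counts. In the order of TPM, 25 of 32 ranks were kept with medians in place of means.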
